A study of Danio rerio with 12 samples.

Results

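In wildtype zebrafish embryos with their first somites, the piece of the body that carried the somites was compared with the piece behind it, which carried the tailbud. The comparison uses 6 of the 12 arrays of the series, chosen by their labels alone: 3 of Region 1 control pieces and 3 of Region 2 control pieces. Region 1 was dissected from between the first and the last somite and kept the lateral and ventral tissue at that level. Region 2 was everything posterior to the last formed pair of somites, with the tailbud, the presomitic mesoderm and Kupffer's vesicle, the left-right organiser (LRO) of zebrafish. All control embryos were wildtype and had been heat-shocked for 30 min at 39 °C at bud stage, as the transgenic embryos of the series were, so no group is free of heat-shock. They were raised at 28 °C and collected 2 h to 2 h and 30 min later, at the 3- to 4-somite stage. Each array received 100 ng of RNA from a pool of 100 pieces, and the methods describe the 3 pools of a group as biological replicates from different breeding adults. The other 6 arrays hold the same regions of Tg(hsp70:HA-dmrt2a) embryos, in which a heat-shock promoter drives HA-tagged *dmrt2a*, and they enter only where the regional difference is read a second time.

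Somites are blocks of paraxial mesoderm that bud off one after another from the anterior end of the presomitic mesoderm and later give muscle, skeleton and dermis. The tailbud holds the progenitors that feed the presomitic mesoderm, the posterior spinal cord and the notochord, and it is a source of Wnt and Fgf signals, whereas formed somites are a source of retinoic acid. Hox genes mark position along the body in the order of their paralogue groups, low-numbered groups reaching far anterior and high-numbered groups staying posterior. Both pieces also hold neural tube, notochord, lateral plate mesoderm, epidermis and yolk-adjacent tissue, and in pieces of tissue fewer cells of a type cannot be told apart from less RNA per cell.

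Each value given below for an array is a log2 signal: the deposited log2 value of 1 probe set, less the median of its array, plus a common median of 3.40. The median of the deposited values was 0.18 higher on Region 1 arrays than on Region 2 arrays, and centring removes this shift. Log2 differences are Region 1 minus Region 2, so a positive one means a higher signal in Region 1. A gene is said to be called when the limma adjusted p was under 0.05 and the fold was at least 2. Levels of different probe sets are not comparable, so each gene is compared only with itself. Arrays of Region 1 correlated with each other at 0.991 to 0.992 and arrays of Region 2 at 0.988 to 0.992, and arrays of different regions at 0.971 to 0.976.

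Of 75212 probe sets, 1886 (2.51%) were called, 911 higher and 975 lower in Region 1. Of these, 721 carry no gene symbol and 75 carry several. Among 20484 named genes, 412 (2.01%) were called higher in Region 1 and 402 (1.96%) were called lower. The median log2 difference over all named genes was -0.10. A log2 difference of 2 or more was reached by 84 called genes, and one of -2 or less by 82. In all 814 called genes the arrays of the regions did not overlap, which was true of 56.5% of all named genes. With 3 arrays a side, the smallest p of an exact permutation test is 0.1, and single genes are therefore given with the limma p alone. The balance of the directions depends on the scaling: 48.3% of called probe sets were higher in Region 1 after centring on the median, 54.0% after centring on the 75th percentile (1005 higher, 856 lower), 54.7% after quantile normalisation (1003 higher, 830 lower) and 70.34% on the values as deposited (1397 higher, 589 lower).

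The labels of the regions were first set against markers. The background for counts of called genes, here and below, is 2.01% of all named genes called higher in Region 1 and 1.96% called lower. Of 30 measured transcription factor genes of formed somites, 11 were called higher in Region 1 and 1 was called lower, with a median log2 difference of 0.35. *pax3b*, a paired-box gene of the dermomyotome and the dorsal neural tube, gave log2 signals of 6.81, 6.97 and 7.09 in Region 1, against 3.49, 4.08 and 3.76 in Region 2 (log2 difference 3.18, standard error 0.16, limma adjusted p = 7.13e-05). *uncx4.1*, a homeobox gene of posterior somite cells, was at 6.36, 6.25 and 6.28 in Region 1 and at 3.59, 3.55 and 3.64 in Region 2 (log2 difference 2.7, standard error 0.07, limma adjusted p = 6.47e-06). Every array of Region 1 was higher than every array of Region 2 for both genes, by more than the spread within a region. Arrays lay apart in all 814 called genes. *tbx18*, a T-box gene of the anterior part of the somite, was likewise higher at 4.55, 4.44 and 4.41 in Region 1, against 3.06, 2.83 and 2.94 in Region 2 (log2 difference 1.53).

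The other called members of this list were *ebf2* (log2 difference 2.71), *twist1a* (2.61), *ripply3* (1.65), *fhl1a* (1.57), *ripply1* (1.56), *nkx3-2* (1.25), *uncx* (1.2) and *pax3a* (1.19). *ripply1*, a repressor that ends the presomitic programme as a somite forms, had 7.54, 7.68 and 7.69 in Region 1 and 5.96, 6.05 and 6.21 in Region 2. The forkhead gene *foxd5* was the member that was lower, with 7.79, 7.80 and 7.63 in Region 1 and 9.44, 9.41 and 9.36 in Region 2 (log2 difference -1.67). Other genes of the list differed by less than the fold threshold. *meox1*, a homeobox gene of the paraxial mesoderm, had 8.91, 8.96 and 8.95 in Region 1 and 8.18, 8.25 and 8.24 in Region 2 (log2 difference 0.72), and *tcf15* (paraxis), needed for epithelial somites in mouse, differed by 0.96. Neither was called. Their arrays did not overlap between the regions, which was true of 56.5% of all named genes. At a limma adjusted p under 0.05 alone, 16 members were higher in Region 1 and 3 were lower. *foxc1b* (-0.64) and *ripply2* (-0.59) were among the lower ones. Over all 20484 named genes, 2366 were higher and 4817 were lower at that threshold. This balance depends on the scaling. Over all probe sets it was 6297 higher and 15724 lower after centring on the median, and 7431 and 7499 after quantile normalisation. On the values as deposited it was 12220 higher and 5245 lower.

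**Figure D1:**
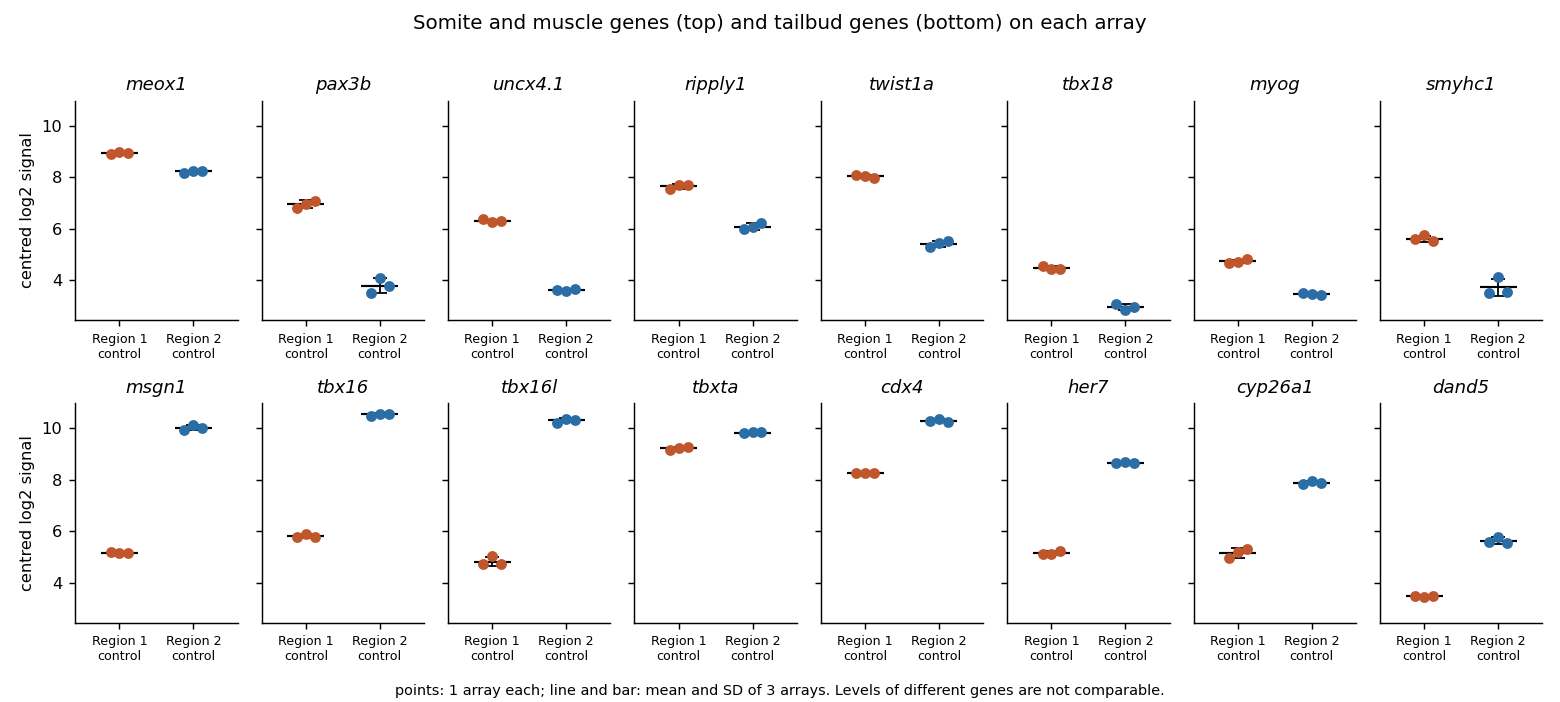
Log2 signal (vertical axis, centred on the array median) of 8 genes of somites and muscle and 8 genes of the presomitic mesoderm, tailbud and LRO in Region 1 control (left) and Region 2 control (right). Points are the 3 arrays of a region, and bars show mean and SD. The points of the regions do not overlap in any panel, as in 56.5% of all named genes. *tbxta* and *meox1* show small differences (-0.61 and 0.72) beside those of *msgn1* (-4.87) and *pax3b* (3.18).

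The myogenic regulators did not move together. Of 18 measured members, 3 were called higher in Region 1 and 2 were called lower (background 2.01% and 1.96%). Their median log2 difference was 0.11. *six4b*, a homeobox gene upstream of the muscle programme, was at 7.74, 7.74 and 7.72 in Region 1 and at 4.2, 4.54 and 4.18 in Region 2, a log2 difference of 3.43 (standard error 0.11, limma adjusted p = 1.28e-05). Its cofactor *eya1* differed by 2.56, although a dimmer probe set of *eya1* gave 0.70. *myog*, which drives the differentiation of committed myoblasts, had 4.65, 4.71 and 4.80 in Region 1, against 3.51, 3.47 and 3.43 in Region 2 (log2 difference 1.25). *myf5*, the earliest of the myogenic bHLH genes and active in the presomitic mesoderm, went the other way, with 6.94, 7.10 and 7.06 in Region 1 and 8.98, 9.03 and 8.96 in Region 2 (log2 difference -1.95, standard error 0.07, limma adjusted p = 2.12e-05). The arrays of the regions lay apart for each of these genes, as they did in all 814 called genes. The second lower member is *tbx16l*, a T-box gene of the presomitic mesoderm that an older symbol placed in this list. *myod1*, the determination gene, was at 8.89, 8.94 and 8.99 in Region 1 and at 8.25, 8.28 and 8.24 in Region 2 and was not called (log2 difference 0.68). *six4a*, the duplicate of *six4b*, differed by -0.84 and was not called either. On the values as deposited 6 members were called higher, against 3 here, and 5 were with centring on the 75th percentile or without replicate 2 of either region.

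Of 61 genes of muscle differentiation, 9 were called higher in Region 1 and none lower (background 2.01% and 1.96%). The median log2 difference of the list was 0.21. *smyhc1*, the slow myosin heavy chain gene of the first muscle fibres, had 5.58, 5.73 and 5.50 in Region 1, against 3.49, 4.1 and 3.54 in Region 2 (log2 difference 1.90, standard error 0.17, limma adjusted p = 0.000854). Genes of the future neuromuscular synapse were among the 9: *chrng* (1.72) and *chrna1* (1.3) encode acetylcholine receptor subunits, and *musk* (1.63) encodes the receptor kinase that clusters them. The others were *tnnc2.2* (1.42), a troponin C gene, *ttn.2* (1.28), one of the titin genes, *srl* (1.24), *acta1b* (1.14) and *jam2a* (1.05), a gene of myoblast fusion. A second probe set of *chrng* showed no such difference (0.04). At a limma adjusted p under 0.05 alone, 24 members were higher in Region 1 and 11 were lower. *mymk* (-0.63) and *tnnt3a* (-0.59) were among the lower ones. The counts over all 20484 named genes at that threshold were 2366 higher and 4817 lower, a balance that depends on the scaling as described for the somite genes. Outside the list, *actc2*, a cardiac-type actin gene, was at 5.95, 6.06 and 6.45 in Region 1 and at 2.81, 2.76 and 2.74 in Region 2, a log2 difference of 3.38, and its other probe set gave 1.38. The count of muscle genes called higher was 14 on the values as deposited and 1 among probe sets with a mean log2 signal above 5.

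Genes of the presomitic mesoderm and tailbud gave the reverse picture. Of 40 measured members, 23 were called lower in Region 1 and 1 was called higher (background 1.96% and 2.01%). Their median log2 difference was -1.74. *msgn1*, a bHLH gene that commits progenitors to the presomitic mesoderm, had 5.18, 5.17 and 5.13 in Region 1 and 9.93, 10.12 and 10.03 in Region 2 (log2 difference -4.87, standard error 0.08, limma adjusted p = 2.33e-06). *tbx16* (spadetail), a T-box gene that lets mesodermal cells leave the tailbud, was at 5.77, 5.90 and 5.79 in Region 1 and at 10.50, 10.56 and 10.58 in Region 2 (log2 difference -4.73, standard error 0.07, limma adjusted p = 2.33e-06). For *tbx16l* the log2 signals were 4.71, 5.02 and 4.71 in Region 1, against 10.22, 10.37 and 10.35 in Region 2 (log2 difference -5.50, standard error 0.11, limma adjusted p = 3.36e-06). The gap between the regions was far wider than the spread within them for all 3 genes. The size depended on the probe set, since those of *tbx16* ranged from -4.73 to -1.52 and a dimmer one of *tbx16l* gave -0.47.

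The Brachyury genes, *tbxta* and *tbxtb*, encode T-box factors of the notochord and of tailbud progenitors, and they differed in size. *tbxta* had 9.17, 9.26 and 9.28 in Region 1 and 9.82, 9.86 and 9.84 in Region 2 and was not called (log2 difference -0.61). *tbxtb* had 5.92, 5.75 and 5.94 in Region 1 and 7.93, 7.98 and 7.93 in Region 2 (log2 difference -2.08). *noto* (floating head), a homeobox gene of notochord progenitors, differed by -2.62, while *tbx6*, needed for the segmentation of the presomitic mesoderm, differed by -0.76 and was not called. Ventral homeobox genes downstream of Bmp were all lower in Region 1, with log2 differences of -3.04 for *vent*, -2.82 for *ved* and -1.86 for *vox*. Of the mesp genes, which mark the next somites to form in the anterior presomitic mesoderm, *mespaa* was called lower (-2.07), while *mespab* (-0.91), *mespba* (0.70) and *mespbb* (0.54) were not called. *wnt11* was the member of the list called higher in Region 1, at 9.34, 9.42 and 9.41, against 7.08, 7.27 and 7.18 in Region 2 (log2 difference 2.21).

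Of 8 caudal, even-skipped and nkx1.2 genes, which pattern the posterior body, 4 were called lower in Region 1 and none higher (background 1.96% and 2.01%). *eve1* was at 2.88, 2.98 and 2.73 in Region 1 and at 8.36, 8.48 and 8.52 in Region 2, a log2 difference of -5.59 (standard error 0.09, limma adjusted p = 2.87e-06). *cdx1a*, a caudal homeobox gene, was at 6.27, 5.86 and 6.2 in Region 1, against 9.67, 9.69 and 9.76 in Region 2 (log2 difference -3.60). Its relative *cdx4*, which sets trunk and tail Hox expression, had 8.26, 8.27 and 8.25 in Region 1 and 10.29, 10.37 and 10.26 in Region 2 (log2 difference -2.05). *nkx1.2la* differed by -3.19. The arrays of the regions lay apart for these 4 genes, as for all 814 called genes. Those of *cdx1b* and *evx1* overlapped (-0.04 each), with probe sets of *evx1* ranging from -1.20 to 0.01.

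Of 45 Hox genes, 27 were called lower in Region 1 and 3 were called higher, with a median log2 difference of -1.73, beside a background of 1.96% and 2.01% of named genes. The direction followed the paralogue group. In groups 1 to 4, 3 of 12 genes were called higher and 3 lower (median 0.16). In groups 5 to 8, 11 of 12 were called lower and none higher (median -2.23), and in groups 9 to 13, 13 of 21 were called lower and none higher (median -1.73). Genes of a cluster lie side by side and share control regions, so they are not independent of one another.

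*hoxb1a*, the marker of the fourth hindbrain segment, had 8.06, 8.14 and 8.22 in Region 1 and 3.33, 2.92 and 3.29 in Region 2 (log2 difference 4.96, standard error 0.12, limma adjusted p = 6.21e-06). *hoxc1a* was at 6.98, 7.01 and 7.02 in Region 1, against 4.49, 4.60 and 4.57 in Region 2 (log2 difference 2.45). *hoxa4a* was called higher by a narrow margin (1.03), and without replicate 1 of Region 2 it fell below the fold threshold, at 1.00. The most anterior groups were mixed, since *hoxd3a* was called lower, at 5.15, 4.78 and 4.67 in Region 1, against 8.53, 8.56 and 8.66 in Region 2 (log2 difference -3.72, and from -3.72 to -0.93 over its 3 probe sets), as were *hoxc4a* (-2.14) and *hoxa2b* (-1.25). *hoxa1a* (0.94), *hoxb2a* (0.60), *hoxa3a* (0.12), *hoxb3a* (0.20), *hoxb4a* (0.12) and *hoxd4a* (-0.29) were not called, although a dimmer probe set of *hoxa3a* gave -1.74. In groups 5 to 8 the called genes lay between -3.57 (*hoxc5a*) and -1.35 (*hoxb8a*), with *hoxb8b* (-0.16) not called and overlapping between the regions.

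Groups 9 and 10 held the widest differences, and all 8 of their measured genes were called lower in Region 1. *hoxa9b* was at 3.77, 3.64 and 3.21 in Region 1 and at 9.38, 9.40 and 9.38 in Region 2 (log2 difference -5.85, standard error 0.15). Its group mate *hoxd9a* had 3.95, 3.64 and 3.63 in Region 1, against 9.17, 9.22 and 9.28 in Region 2 (log2 difference -5.49). *hoxb10a* was at 3.04, 2.99 and 2.98 in Region 1 and at 7.88, 7.85 and 7.94 in Region 2 (log2 difference -4.88). All arrays of Region 2 stood far above all arrays of Region 1 for these genes. *hoxc9a* and *hoxa10b* each differed by -4.52, *hoxd10a* by -3.63, *hoxb9a* by -2.55 and *hoxc10a* by -1.73, and a dimmer probe set of *hoxa10b* gave -0.72. Further posterior fewer genes were called. *hoxa11b* (-3.74), *hoxd11a* (-3.67), *hoxa13b* (-2.74), *hoxc11a* (-1.51) and *hoxd12a* (-1.13, and -0.55 in a dimmer probe set) were called. The other 8 genes of groups 11 to 13 lay between -0.74 (*hoxc12a*) and 0.25 (*hoxc13b*) with none called. Several of these had mean log2 signals under the common median of 3.40 in both regions, such as *hoxa13a* (2.11 and 2.26) and *hoxb13a* (1.98 and 2.33). Whether such genes were detected at all is not known, and a dimmer probe set of *hoxc11b* gave -1.26. *hoxa13b* was the only one of 6 genes of group 13 to be called, with 1.77, 2.10 and 2.05 in Region 1 and 4.47, 4.84 and 4.84 in Region 2.

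**Figure D2:**
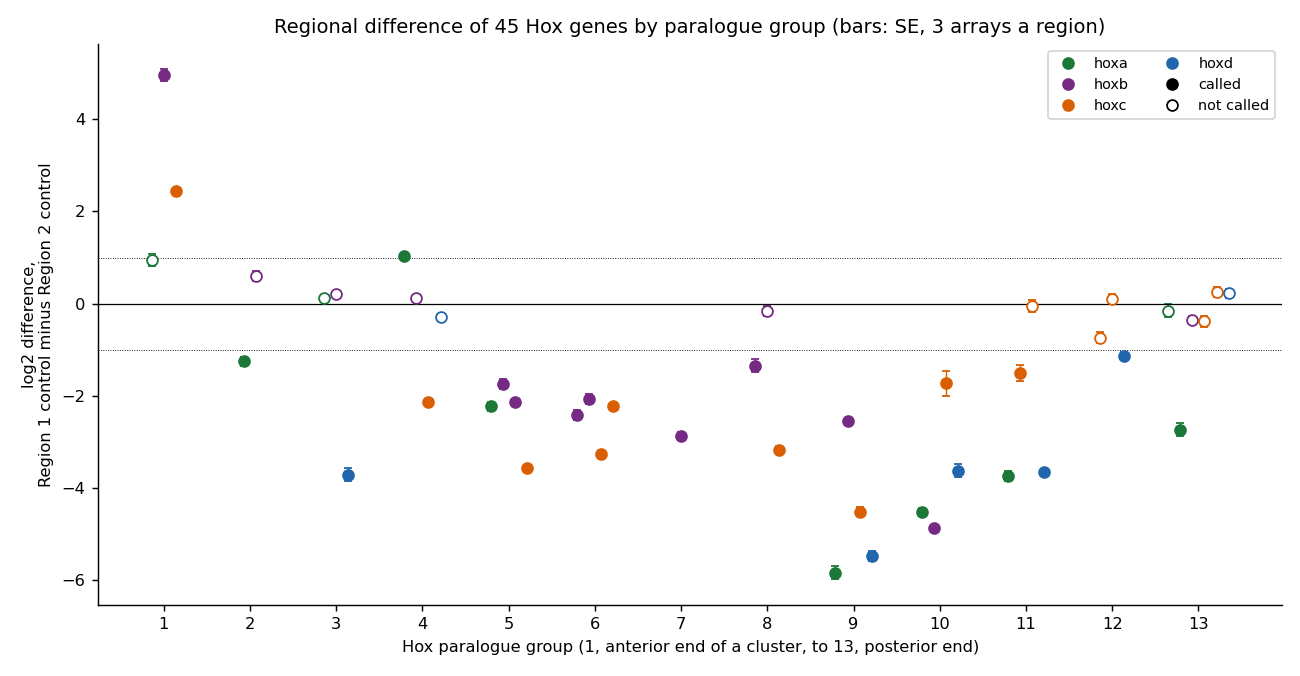
Log2 difference (vertical axis, Region 1 minus Region 2 control) of each of 45 Hox genes by paralogue group (horizontal axis); bars are standard errors and filled points are called genes. Genes called higher appear only in groups 1 and 4, groups 9 and 10 lie lowest with medians of -5.00 and -4.07, and most genes of group 13 lie near 0.

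Of 31 measured segmentation clock and Notch genes, 4 were called higher in Region 1 and 4 lower (background 2.01% and 1.96%). The other 23 were not called, and the median log2 difference of the list was -0.09. *her7*, a cyclic repressor of the clock, had 5.12, 5.11 and 5.24 in Region 1 and 8.67, 8.69 and 8.64 in Region 2 (log2 difference -3.51, standard error 0.07, limma adjusted p = 3.38e-06). Its partner *her1* was at 7.03, 7.12 and 7.16 in Region 1, against 10.11, 10.14 and 10.06 in Region 2 (log2 difference -3.0). *hes6*, whose product pairs with these repressors, differed by -2.7 and *dlc*, a cyclic Delta ligand, by -1.29. These 4 genes had no overlap between the regions, like all 814 called genes, and the clock gene *her12* (-0.66) was not called. The members called higher were *jag2b* (1.57) and *dlb* (1.12), both Notch ligand genes, *nrarpb* (1.11), a feedback inhibitor of Notch whose duplicate *nrarpa* differed by -0.84 and was not called, and *hey1* (1.03), a Notch target. *hey1* fell below the fold threshold without replicate 3 of Region 1 (0.98) or replicate 1 of Region 2 (0.90), and other probe sets of *nrarpb* reached down to -0.03. *her13*, another gene of the hairy/E(spl) family, was far higher in Region 1, at 7.05, 7.14 and 7.05, against 2.97, 3.02 and 2.87 in Region 2 (log2 difference 4.12, standard error 0.07). *lfng*, which modifies Notch receptors, differed by 0.90 and was not called.

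In the retinoic acid pathway, 7 of 29 genes were called higher in Region 1 and 5 lower (background 2.01% and 1.96%). The genes of the degrading enzymes were divided between the regions. *cyp26a1* was lower in Region 1, at 4.94, 5.21 and 5.30, against 7.85, 7.96 and 7.87 in Region 2 (log2 difference -2.74, standard error 0.11, limma adjusted p = 2.69e-05). *cyp26c1* was higher in Region 1, at 6.57, 6.73 and 6.6, against 3.36, 3.08 and 3.28 in Region 2 (log2 difference 3.40, standard error 0.10, limma adjusted p = 7.87e-06), and so was *cyp26b1* (2.07). No array of one region reached the range of the other for these 3 genes, as in all 814 called genes. On the side of supply, *rdh10a*, which makes retinal from retinol, differed by 2.42, and *dhrs3a*, which turns retinal back into retinol, had 6.95, 7.14 and 6.86 in Region 1 and 3.29, 3.12 and 3.24 in Region 2 (log2 difference 3.77). *aldh1a2*, the enzyme gene of retinoic acid synthesis in somites, was at 7.73, 7.71 and 7.71 in Region 1, against 6.96, 6.93 and 6.86 in Region 2, below the fold threshold (log2 difference 0.80). The receptors were divided too: *rargb* (-3.28), *rxrab* (-2.91) and *rarga* (-1.3) were lower in Region 1, while *rxrgb* (2.51) and *rxrga* (1.90) were higher. Among cofactors, *crabp2a*, a carrier of retinoic acid within cells, differed by -1.46 and *nrip1b*, a nuclear receptor cofactor, by 1.62.

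Of 39 genes of the Fgf pathway, 9 were called lower in Region 1 and 5 higher (background 1.96% and 2.01%). *fgf8a*, the ligand of the posterior Fgf gradient, had 6.48, 6.58 and 6.41 in Region 1 and 7.91, 8.16 and 8.18 in Region 2 (log2 difference -1.60, standard error 0.10, limma adjusted p = 0.000164). The ligands *fgf24* (-1.98) and *fgf10a* (-1.46) were also lower, whereas *fgf18b* was higher (1.51). The other members called lower were 6 feedback inhibitors and targets of Fgf signalling, *spry4* (-2.44), *il17rd* (-1.67), *dusp5* (-1.51), *spry1* (-1.36), *etv4* (-1.27) and *spry2* (-1.01). With 1 array left out, *spry2* ranged from -1.04 to -0.96 and so reached below the fold threshold. For *spry4* the log2 signals were 6.46, 6.59 and 6.61 in Region 1, against 8.93, 9.07 and 8.98 in Region 2. Genes of the same kind that were not called included *spred2b* (-0.92), *etv5b* (-0.83), *dusp6* (-0.68), *spred2a* (-0.62), *spred3* (-0.46), *dusp4* (-0.33), *spred1* (-0.32) and *etv5a* (-0.15). Further members of the list that were not called were *cnpy1* (-0.28) and, on the other side of 0, *flrt3* (0.31). Of 6 receptor genes, 4 were called higher, with *fgfr2* at 8.87, 8.90 and 8.90 in Region 1 and at 6.78, 6.86 and 6.78 in Region 2 (log2 difference 2.09), and with differences of 1.43 for *fgfrl1b*, 1.41 for *fgfrl1a* and 1.11 for *fgfr4*, while *fgfr1b* (0.29) and *fgfr1a* (0.11) were not called.

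In the Wnt pathway, 9 of 59 genes were called higher in Region 1 and 11 lower (background 2.01% and 1.96%). The ligands were divided. *wnt5b*, a ligand of cell movement in the tail, had 6.18, 6.11 and 6.37 in Region 1 and 9.0, 9.26 and 9.10 in Region 2 (log2 difference -2.90), and *wnt2bb* (-2.31) and *wnt3a* (-1.91) were lower as well. Outside the list, the ligand gene *wnt7ab* was far higher in Region 1, at 6.64, 6.79 and 6.61, against 2.10, 1.92 and 1.93 in Region 2 (log2 difference 4.70, standard error 0.09, limma adjusted p = 3.09e-06). *wnt16* (2.98), *wnt11* (2.21), *wnt10b* (1.22) and *wnt1* (1.08) were also higher, so that 5 of 24 measured Wnt ligand genes were called higher and 3 lower. Among the other members called lower in Region 1 were the receptor gene *fzd10* (-2.89), *notum1a* (-2.10), whose product inactivates Wnt proteins, *sp5l* (-1.75), *wif1* (-1.32), and *lef1* (-1.51) and *tcf7* (-1.28), nuclear partners of beta-catenin. *axin2*, a general Wnt target, differed by -0.51 and was not called. The secreted inhibitors *sfrp2* (2.44) and *sfrp5* (1.49) and the receptor gene *fzd9b* (1.85) were among those called higher.

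The Bmp list had the most called members of these 4 pathways. Of its 43 genes, 14 were called lower in Region 1 and 7 higher (background 1.96% and 2.01%). *bmp4*, a ventral and tailbud ligand, was at 5.79, 5.98 and 5.80 in Region 1 and at 8.82, 8.92 and 8.76 in Region 2 (log2 difference -2.98). *bmp2a* (-3.35) and *bmp7a* (-1.29) were also lower, *bmp2b* was not called (-0.30), and *gdf11*, which governs the switch from trunk to tail in mouse, had 5.33, 5.28 and 5.13 in Region 1, against 8.60, 8.58 and 8.65 in Region 2 (log2 difference -3.37). The ligands called lower separated the regions with no overlap, as did all 814 called genes. Other ligand genes of the list were called higher in Region 1: *gdf6a* (1.71), *bmp6* (1.33) and *gdf6b* (1.19). Secreted antagonists were found on both sides. *szl* (sizzled), which holds Chordin-cleaving proteases in check, had 4.60, 4.83 and 4.68 in Region 1 and 10.04, 10.15 and 10.09 in Region 2 (log2 difference -5.39, standard error 0.08, limma adjusted p = 2.33e-06), and *chrd*, the Chordin gene, was lower too (-1.75), as was the ligand gene *admp* (-2.29). *fsta* (follistatin) had the largest positive difference of all called genes, at 8.29, 8.42 and 8.57 in Region 1, against 2.66, 2.84 and 2.44 in Region 2 (log2 difference 5.78, a fold of 54.9, standard error 0.13, limma adjusted p = 3.99e-06). An antagonist gene outside the list, *grem2a*, was at 7.77, 7.65 and 7.59 in Region 1 and at 3.91, 3.90 and 3.94 in Region 2 (log2 difference 3.75). *smad9* (-2.53), the decoy receptor gene *bambia* (-1.95) and the inhibitor gene *smad7* (-1.36) were lower in Region 1, together with the targets *msx2b* (-2.05) and *msx3* (-1.58). *id2b* was higher (1.21), while *id1* (-0.10) and *id3* (0.08) were not called.

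**Figure D3:**
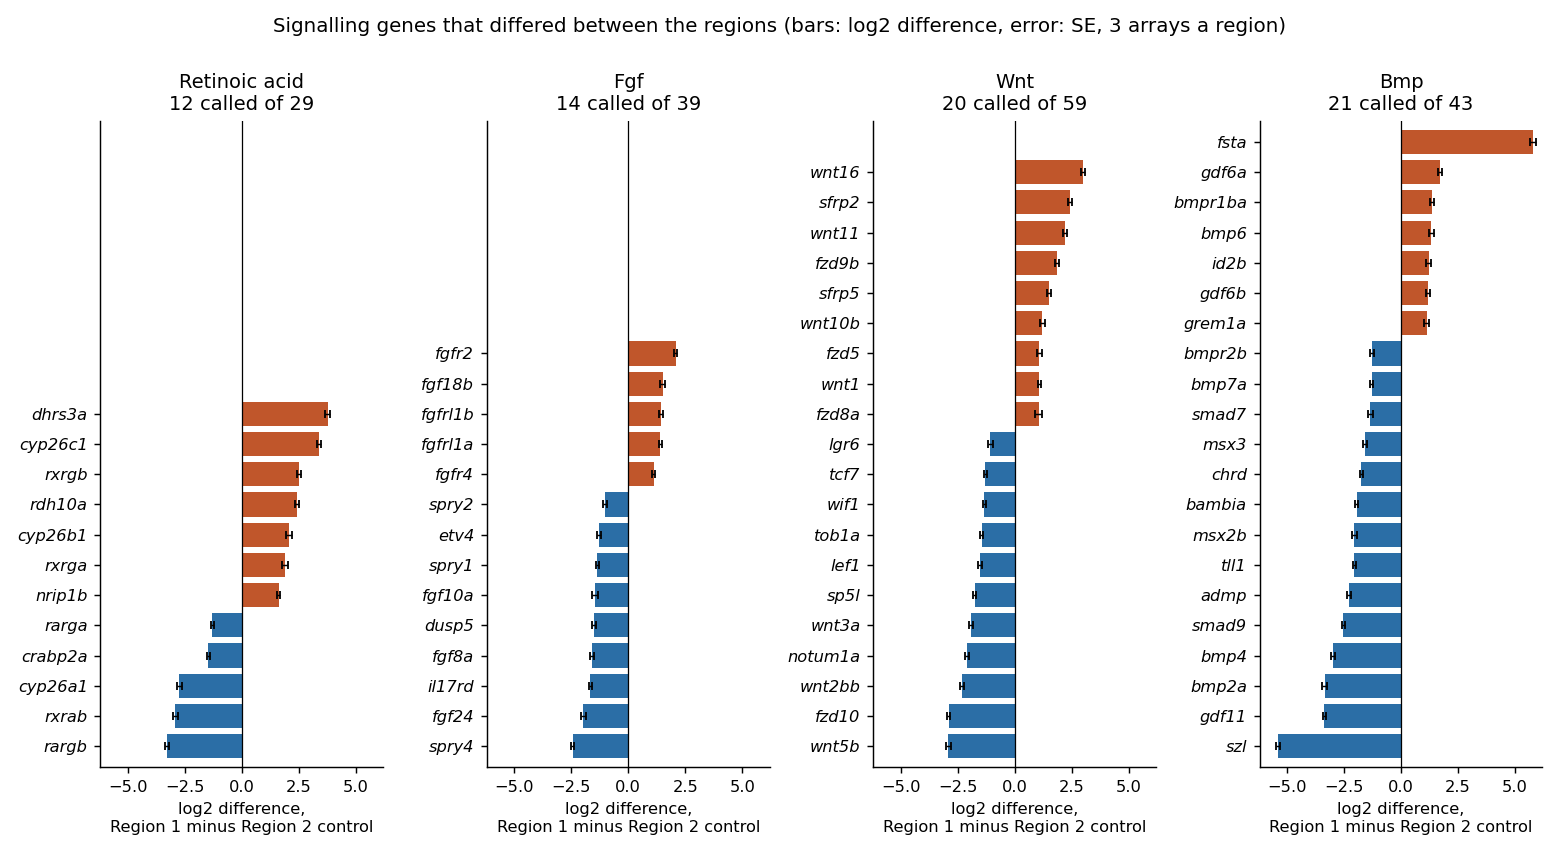
Log2 difference (horizontal axis, Region 1 minus Region 2 control) of the called genes of the retinoic acid (12 of 29), Fgf (14 of 39), Wnt (20 of 59) and Bmp (21 of 43) lists; bars are the differences and lines their standard errors. Each pathway has called genes on both sides of 0, from *szl* at -5.39 to *fsta* at 5.78 in the Bmp list.

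Several genes of the hindbrain were called higher in Region 1, although the piece is labelled as taken between the somites. Of 53 genes of the anterior neural plate and hindbrain, 12 were called higher and 3 lower (background 2.01% and 1.96%). The other 38 were not called, and the median log2 difference of the list was 0.15. *egr2b* (krox20), which marks the third and the fifth hindbrain segments, had 6.83, 6.81 and 6.86 in Region 1 and 3.35, 3.43 and 3.37 in Region 2 (log2 difference 3.44, standard error 0.06, limma adjusted p = 3.09e-06). *irx7*, an Iroquois gene of the hindbrain, was at 7.43, 7.69 and 7.55 in Region 1, against 3.39, 3.67 and 3.76 in Region 2 (log2 difference 3.95), and *gbx2*, of the anterior hindbrain, differed by 2.35. Together with *hoxb1a* these genes belong to segments anterior to the first somite. The 3 members called lower were *hoxd3a*, *hoxa2b* and *foxb1b* (-1.01), and *egr2a* (0.10), *mafbb* (0.05) and *epha4a* (-0.11), other genes of hindbrain segments, were not called. The list also holds genes of the forebrain, the midbrain and the boundary of midbrain and hindbrain. Of these, *wnt1* was called higher (1.08), while *six3b* (-0.08), *rx3* (0.32), *otx2b* (0.73), *en2a* (-0.01) and *pax2a* (-0.10) were not called. How far the pieces of Region 1 reached beyond the first somite was not tested.

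Partners of Hox proteins and the Iroquois genes shifted towards Region 1. Of 9 Meis and Pbx genes, whose products bind DNA together with Hox proteins, 5 were called higher and none lower. The background was 2.01% and 1.96%, and the median log2 difference of the 9 genes was 1.11. *meis3* was at 10.15, 10.17 and 10.23 in Region 1 and at 5.88, 6.13 and 5.69 in Region 2 (log2 difference 4.29, standard error 0.12, limma adjusted p = 7.52e-06). *meis2a* had 8.50, 8.57 and 8.60 in Region 1, against 5.10, 5.29 and 5.09 in Region 2 (log2 difference 3.39). *meis1a* (2.38), *pbx1a* (1.36) and *meis1b* (1.11) were called as well, although a dimmer probe set of *meis1a* gave -0.24. Of 11 Iroquois genes, homeobox genes of neural and mesodermal territories, 5 were called higher and none lower: *irx7*, *irx1a* (2.22), *irx1b* (2.13), *irx3b* (1.46) and *irx5a* (1.33). None of 6 Zic genes was called, and *zic2a* came near the fold threshold at 0.96.

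Of 59 genes of neural progenitors and neurons, 14 were called higher in Region 1 and 1 lower (background 2.01% and 1.96%). The other 44 were not called, and the median log2 difference of the list was 0.54. Among progenitor genes of the SoxB group, *sox19b* (1.99), *sox3* (1.97) and *sox1a* (1.61) were called, while *sox2* was not and lay slightly lower (-0.63). *sox3* had 7.14, 7.05 and 7.18 in Region 1 and 5.06, 5.25 and 5.16 in Region 2. Among genes of neuronal commitment, those called higher included *onecutl* (1.85), *onecut1* (1.77), *neurod4* (1.75) and *neurog1* (1.2). The lower member was *isl2a* (-1.25), a LIM homeobox gene of early sensory and motor neurons, at 5.82, 5.81 and 5.68 in Region 1, against 6.95, 7.07 and 7.06 in Region 2. The pan-neuronal *elavl3* differed by 0.92 and was not called. On the values as deposited 22 members of the list were called higher, against 14 here.

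Neural crest and plate border genes were split, with 5 of 31 called higher and 5 lower (background 2.01% and 1.96%). *sox9b* (1.71) and *sox9a* (1.57), genes of crest and cartilage precursors, and *snai1b* (1.46) were higher in Region 1, while *dlx2a* (-2.49), *sox5* (-1.93), *msx3* and *snai1a* (-1.2) were lower. *dlx2a* was at 4.69, 4.81 and 4.64 in Region 1 and at 7.0, 7.45 and 7.17 in Region 2. The Dlx and Msx family held 4 genes called lower of 13, and none higher. The crest genes *foxd3* (0.47) and *sox10* (0.28) were not called. Of the snail genes, then, *snai1a* had 9.66, 9.73 and 9.78 in Region 1 and 10.85, 10.96 and 10.96 in Region 2, and *snai1b* had 8.86, 8.96 and 8.95 in Region 1 and 7.38, 7.51 and 7.51 in Region 2.

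Some genes of the mesoderm of the head, heart and flank also differed between the regions, in both directions. Of 31 genes of the heart field and pharyngeal mesoderm, 7 were called higher in Region 1 and 4 lower (background 2.01% and 1.96%). The other 20 were not called, and the median log2 difference of the list was -0.10. *tbx1*, a T-box gene of the pharyngeal mesoderm and endoderm, was at 7.74, 7.73 and 7.75 in Region 1 and at 3.37, 3.55 and 3.56 in Region 2 (log2 difference 4.25, standard error 0.08, limma adjusted p = 3.09e-06). *prrx1a* (2.21), *nkx2.7* (2.16), *foxf2a* (1.86), *foxf1* (1.38), *tbx20* (1.33) and *hand2* (1.19), genes of head, cardiac and lateral plate mesoderm, were higher as well. *tbx2a* (-1.71) and *tbx2b* (-1.24) were lower, as were *bmp4* (-2.98) and *fgf10a* (-1.46), described above with their pathways. The cardiac regulator gene *nkx2.5* (0.27) and the heart muscle gene *myl7* (-0.30) were not called. In the pronephros list, 4 of 23 genes were called higher and 1 lower: *wt1a*, a gene of the anterior kidney and its podocytes, had 6.81, 6.82 and 6.85 in Region 1 and 3.25, 3.53 and 3.39 in Region 2 (log2 difference 3.44, standard error 0.09, limma adjusted p = 6.54e-06), whereas its duplicate *wt1b* differed by -0.15 and the tubule genes *pax8* (-0.13) and *pax2a* (-0.10) were not called.

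Among genes of blood and vessels, 20.6% of the primitive blood list and 10.8% of the angioblast and endothelium list were called in either direction. The background was 2.01% of named genes called higher and 1.96% called lower. Of 34 genes of primitive blood, 5 were called lower in Region 1 and 2 higher (median log2 difference -0.14), and in transgenic pieces 2 were called in each direction. Of 37 genes of angioblasts and endothelium, 4 were called lower and none higher (median -0.24). Both counts include *lmo2* and *tal1*, which specify the common progenitors of blood and vessels. *lmo2* was at 5.69, 5.61 and 5.77 in Region 1 and at 7.29, 7.44 and 7.40 in Region 2 (log2 difference -1.69), and *tal1* was at 6.04, 6.23 and 6.16 in Region 1, against 7.73, 7.74 and 7.73 in Region 2 (log2 difference -1.59). *gfi1aa* (-1.18), *gata1a* (-1.11) and *etsrp* (-1.08) were called lower by a narrow margin and fell below the fold threshold on the values as deposited. *blf*, a zinc finger gene of early blood, was lower (log2 difference -2.89), with 5.51, 5.41 and 5.51 in Region 1 and 8.42, 8.35 and 8.32 in Region 2. Of the embryonic globin genes, *hbbe1.1* was called higher (log2 difference 2.43). It had 5.44, 5.50 and 5.48 in Region 1, against 3.09, 2.96 and 3.07 in Region 2. *hbae3* was also called higher (1.74), while *hbbe3* (0.39), *hbbe2* (-0.05) and *hbae5* (-0.38) were not called. The endothelial genes *kdrl* (-0.81) and *cdh5* (0.06) were not called.

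In the notochord and floor plate list, 6 of 41 genes were called higher in Region 1 and 3 lower (background 2.01% and 1.96%). The 3 that were lower, *noto*, *tbxtb* and *chrd*, are genes of notochord progenitors. The widest of those that were higher was *col2a1a*, the type II collagen gene of the notochord sheath, with 5.94, 6.12 and 6.14 in Region 1 and 4.07, 4.01 and 4.11 in Region 2 (log2 difference 2.00), and *col9a2* differed by 1.17. The Hedgehog ligand genes of the midline, *shha* (0.50) and *shhb* (0.68), were not called, and neither was the floor plate gene *foxa2* (-0.10). *ihhb*, another Hedgehog ligand gene, was called higher (1.24), and so was *gli2b* (1.16), which encodes a transcription factor of the pathway.

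Of 58 genes of the LRO and motile cilia, 5 were called lower in Region 1, against a background of 1.96% of named genes, and 1 was called higher (median log2 difference -0.18). *dand5* (charon), a Nodal antagonist gene of Kupffer's vesicle, had 3.48, 3.42 and 3.49 in Region 1 and 5.57, 5.79 and 5.52 in Region 2 (log2 difference -2.17, standard error 0.09, limma adjusted p = 3.38e-05). *pkd1l1*, a polycystin gene of the flow-sensing cells, was at 2.07, 2.15 and 2.23 in Region 1, against 3.2, 3.72 and 3.40 in Region 2 (log2 difference -1.29). Both were higher in every array of Region 2 than in any array of Region 1, and arrays lay apart in all 814 called genes. The other members called lower were *fgf8a*, described above with its pathway, *has2* (-1.09), which encodes a hyaluronan synthase, and the motile cilia gene *spag6*. *spag6* was at 3.62, 3.23 and 3.36 in Region 1 and at 4.35, 4.40 and 4.48 in Region 2, right at the fold threshold, and it fell below it without replicate 2 (-0.92) or replicate 3 (-0.98) of Region 1 or replicate 3 of Region 2 (-0.97). The cilia genes *tekt2* (-0.84) and *enkur* (-0.78) were below the fold threshold. The master regulator genes of motile cilia, *foxj1a* (0.19) and *foxj1b* (0.34), the dynein genes *dnah9* (0.06) and *dnah5* (-0.23), and *sox17* (0.20), of the cells that found the vesicle, were not called. *spaw*, the Nodal ligand of the left side, differed by -0.54 and was not called. None of 28 genes of dynein heavy chains and their assembly factors was called. *rfx4*, a relative of the ciliary Rfx factors, was the member that was higher (1.29).

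Of 55 genes of the extracellular matrix and integrins, 7 were called higher in Region 1 and 2 lower (background 2.01% and 1.96%). The other 46 were not called, and the median log2 difference of the list was 0.04. The lower ones were *has2* and the integrin gene *itga4* (-1.28). Of 51 collagen genes, 9 were called higher and none lower (median 0.16). Those called higher included genes of the basement membrane. *col15a1b* was at 6.13, 6.34 and 6.41 in Region 1 and at 3.26, 3.55 and 3.47 in Region 2 (log2 difference 2.87). *col4a5* (1.99), *col4a1* (1.59) and *col4a2* (1.48) followed, while *col15a1a*, the duplicate of *col15a1b*, was not called (-0.57). Dimmer probe sets of *col4a5* (0.09) and *col4a1* (-0.10) lay near 0. *sparc*, a collagen-binding matrix gene, differed by 1.53. The fibronectin genes *fn1a* (-0.87) and *fn1b* (-0.60), whose product lines somite borders, and all 11 laminin genes were not called. Of 32 cadherins and protocadherins, 6 were called higher and none lower (median 0.05), with *pcdh10a* (2.53), *cdh7a* (2.23), *pcdh12* (2.05) and *cdh15* (2.04), the muscle cadherin, in front, although a dimmer probe set of *pcdh10a* gave 0.22. The widely expressed *cdh1* (-0.51) and *cdh2* (-0.43) were not called. *efnb2a*, the ephrin of the posterior part of each somite and of hindbrain segments, had 9.57, 9.60 and 9.60 in Region 1, against 7.55, 7.65 and 7.63 in Region 2 (log2 difference 1.98). The chemokine genes *cxcl12a* (1.28) and *cxcl12b* (1.25) were higher in Region 1, and the receptor gene *cxcr4a* was lower (-1.77). The receptor genes *cxcr4b* (0.94), *ackr3b* (0.38) and *ackr3a* (0.09) were not called.

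Some groups gave no called gene in either direction, beside a background of 2.01% called higher and 1.96% called lower, at which a small group would hold few or none. None of 64 genes of the cell cycle and DNA replication was called, and *pcna* had 10.77, 10.78 and 10.74 in Region 1 and 10.70, 10.60 and 10.72 in Region 2. None of 35 heat shock protein genes was called (median log2 difference -0.18), *hspa1b* differing by -0.65. Neither 80 genes of cytoplasmic ribosomal proteins, 67 of mitochondrial ribosomal proteins, 105 of the respiratory chain nor 22 tubulin genes held a called member. Of 43 epidermis and periderm genes, 1 was called higher (*foxi1*, 1.13) and 1 lower (*atp1b1b*, -1.35), a share near that background, with *krt4* (-0.50) and *tp63* (-0.09) not called. These small counts each became 2 with 1 array left out, the higher one without replicate 1 of Region 2, the lower one without replicate 1 of Region 1 or replicate 2 of Region 2. Of 34 genes of the yolk syncytial layer, the tissue beneath the embryo that feeds on the yolk, 2 were called lower in Region 1: *apobb.2*, which encodes a lipid carrier, at 4.45, 4.55 and 4.40 in Region 1, against 6.23, 6.38 and 6.36 in Region 2 (log2 difference -1.86), and *slc40a1*, an iron exporter gene (-1.13), which fell below the fold threshold on the values as deposited. The part of this tissue in other differences was not tested.

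**Figure D4:**
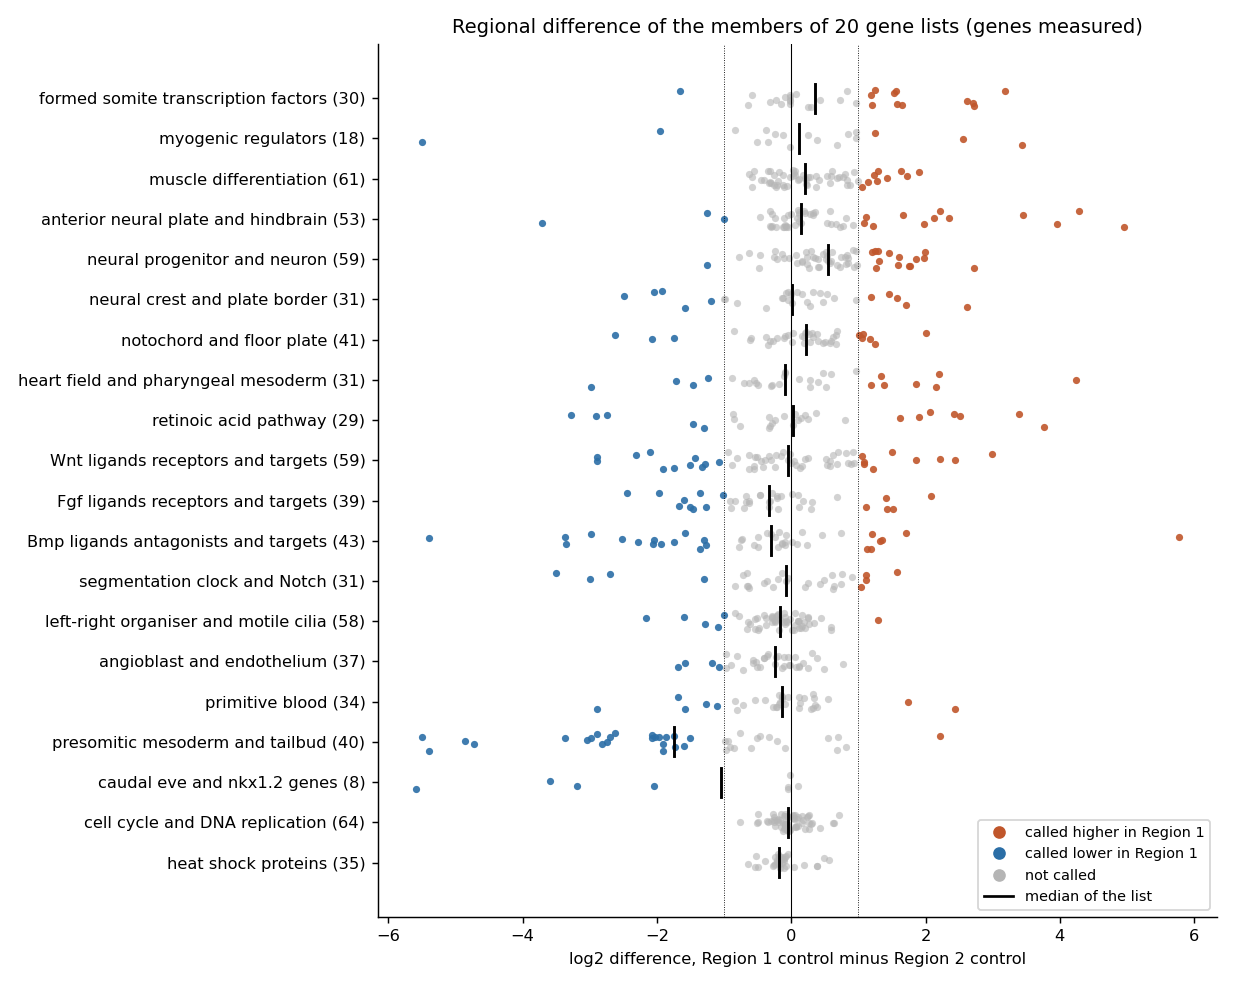
Log2 differences (horizontal axis, Region 1 minus Region 2 control) of the measured members of 20 gene lists, 1 list a row; points are genes, black marks list medians, and dotted lines a log2 difference of 1 and of -1. The presomitic mesoderm and tailbud list lies furthest to the left (median -1.74), and the cell cycle and heat shock lists stay between the dotted lines.

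The genes with the widest differences were led by the members described above. Of the 20 largest positive differences among called genes, the first 7 belonged to *fsta*, *hoxb1a*, *wnt7ab*, *meis3*, *tbx1*, *her13* and *irx7*. They were followed by *pkdcca*, which encodes a secreted kinase, at 7.59, 7.62 and 7.50 in Region 1, against 3.74, 3.77 and 3.81 in Region 2 (log2 difference 3.80), with its duplicate *pkdccb* also in the group (3.33). *vgll3*, a cofactor of Tead transcription factors, differed by 3.48, although a dimmer probe set gave -0.03. *skida1* (3.41) and *zbtb16b* (3.38), a zinc finger transcription factor gene, were also among the 20, and like these genes, *grem2a* and *actc2* they are on none of the lists. Among the 20 largest negative differences were 10 Hox genes of paralogue groups 3 to 11. Apart from the Hox genes, the 3 on none of the lists were *rbm38*, *grin2da* and *itm2cb*. *rbm38*, an RNA-binding protein gene, was at 5.71, 5.85 and 5.85 in Region 1 and at 9.38, 9.48 and 9.51 in Region 2 (log2 difference -3.66). *grin2da*, a glutamate receptor subunit gene, had 4.84, 4.77 and 4.75 in Region 1, against 8.33, 8.43 and 8.43 in Region 2 (log2 difference -3.61), and *itm2cb*, a membrane protein gene, differed by -3.40. In each of these genes the distance between the regions exceeded the spread within them many times over.

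Some further called genes rest on the brightest of several probe sets, and another probe set of the gene gave a difference under the fold threshold. These values were 0.37 for *foxf2a*, 0.50 for *onecut1*, 0.32 for *col9a2*, 0.73 for *pcdh12*, 0.30 for *gata1a*, -0.16 for *atp1b1b*, -0.19 for *slc40a1*, -0.25 for *dusp5* and for *spry2*, -0.38 for *lmo2*, -0.39 for *bmp7a* and -0.52 for *crabp2a*. For *gata1a* that probe set lay on the opposite side of 0.

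*dmrt2a*, the gene that the transgenic embryos of the series overexpress, was moderately higher in Region 1 of wildtype embryos. Its log2 signals were 8.36, 8.27 and 8.26 in Region 1 and 7.43, 7.51 and 7.42 in Region 2 (log2 difference 0.84, standard error 0.07, limma adjusted p = 0.000582). The arrays did not overlap, as in 56.5% of all named genes, and the fold of 1.79 was under the threshold. Its duplicate *dmrt2b* had 3.17, 3.38 and 2.85 in Region 1 and 3.37, 3.33 and 3.76 in Region 2, with overlapping arrays (log2 difference -0.35, standard error 0.17, limma adjusted p = 0.163). None of the 5 measured Dmrt genes was called.

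The same contrast was then read in the transgenic pieces, which share no array with the control pieces. There 464 named genes (2.27%) were called higher in Region 1 and 339 (1.65%) lower. Of the 814 genes called in control pieces, 638 were called in the same direction in transgenic pieces, which is 78.4% of the control calls and 79.5% of the transgenic calls, and 812 had the same sign. Over the 412 genes higher in Region 1 of control embryos the median log2 difference was 1.42 in transgenic pieces and 1.38 in control pieces, and over the 402 lower genes it was -1.28 in transgenic pieces and -1.35 in control pieces. 1 gene was called in opposite directions, *si:dkey-26g8.5*, with a log2 difference of 2.27 in transgenic pieces and -1.11 in control pieces. *pcdh12* was the other gene whose sign changed, with -0.29 in transgenic pieces and 2.05 in control pieces. Muscle differentiation genes called higher in Region 1 numbered 16 of 61 in transgenic pieces and 9 in control pieces, and Hox genes called lower numbered 26 of 45 and 27. *dmrt2a* itself differed by -0.19 between the regions of transgenic embryos and by 0.84 between those of control embryos.

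**Figure D5:**
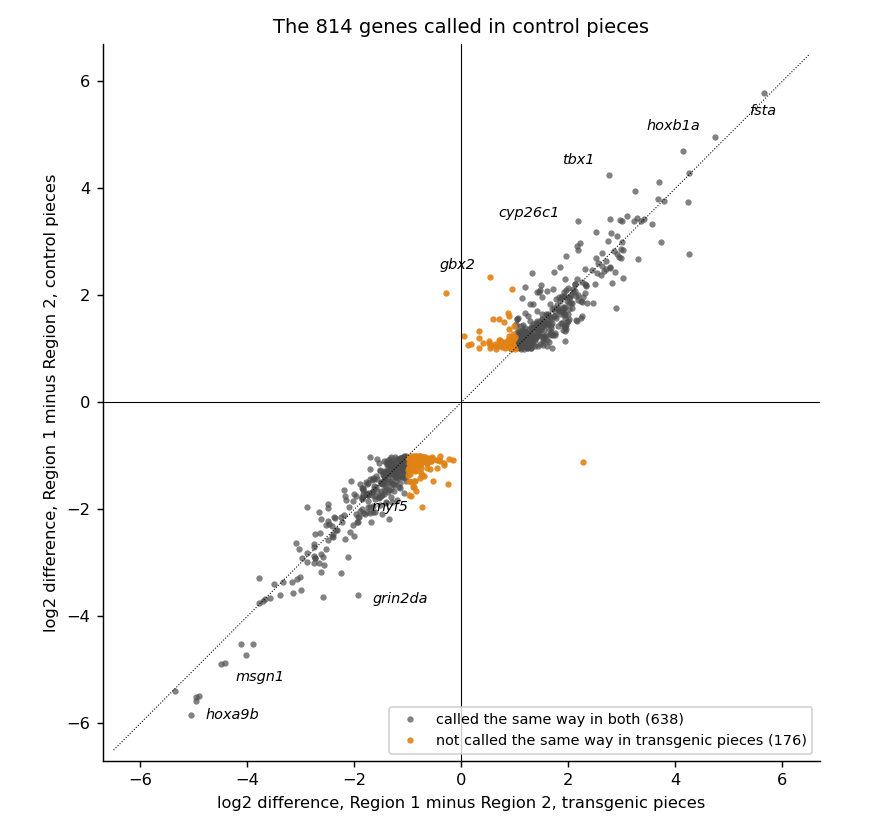
Log2 difference between Region 1 and Region 2 in transgenic pieces (horizontal axis) and in control pieces (vertical axis) for the 814 named genes called in control pieces; grey points are the 638 that were also called in the same direction in transgenic pieces, and orange points are the others. Most points follow the diagonal, and *pcdh12* and *si:dkey-26g8.5* lie on the opposite side of 0 in the transgenic pieces.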

How the data were processed

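RNA of dissected zebrafish embryo pieces was measured with Affymetrix Zebrafish Gene ST chips, 3 a group in 4 groups. The deposited values are log2 signals of 75212 probe sets, made by the authors in Affymetrix Expression Console. Their summarisation and normalisation are not given in the sources used here. Background and array quality were not judged, since scanner files were not used. Control pieces of Region 1 and Region 2 were compared; the number of arrays limits the precision.

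Each array was centred on its median, and R 4.3.3 with limma 3.58.1 (lmFit and eBayes on 6 arrays, group only) tested Region 1 minus Region 2, two-sided, with Benjamini-Hochberg adjustment over all probe sets. The thresholds are those of the methods, a fold of 2 and an adjusted p under 0.05. The methods used a one-way ANOVA, run here as an alternative. The limma script was tested on simulated data. The transgenic arrays were fitted alike, and the difference between the regional differences was fitted on all 12 arrays. The methods describe a pool of each region per replicate, so the pools of a replicate may come from the same embryos. The labels do not tie same-numbered pools to each other. Deviations of same-numbered arrays from their group means correlated at 0.08, 0.03 and 0.04. The arrays were taken as unpaired, and a fit with the replicate number as a block was run as an alternative.

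Names of probe sets come from the platform annotation with updated symbols (Python 3.11.15, pandas 2.3.3): 29528 had 1 symbol, 1845 several and 43839 none. A gene is represented by its probe set with the highest mean over the 12 arrays. The 32 gene lists hold 1094 genes, of which 1000 had a probe set of their own, 33 shared every probe set with another symbol, and 61 found no match. Members and lists were chosen with earlier results of these data known, and lists were described by counts and medians with no set test. Genes named were the 20 largest differences in each direction, up to 6 members of each list and family in each direction, by adjusted p, the tissue markers, all Hox genes and the dmrt2 genes, 883 in all, and not all of them are named. Families counted in the closing section and their genes were chosen after their values were seen, as were *si:dkey-26g8.5* and the genes whose duplicates went in opposite directions. Alternatives were other scalings, no centring, filters, other tests and probe sets, the replicate block and leaving out each array.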

Additional observations from a re-analysis of the deposited data

Results flagged for a closer look

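The regional difference was tested for a difference between transgenic and control embryos, with limma on all 12 arrays, in each of the 883 genes, and it differed at an adjusted p under 0.05 in 40 of them. The share of all named genes that passed this test was not counted, so 40 of 883 has no background beside it. The values given are the regional log2 difference (Region 1 minus Region 2) of transgenic pieces minus that of control pieces.

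*her3*, a hairy/E(spl) gene of the neural plate, had the smallest adjusted p of these (-2.29, limma adjusted p = 9e-05), with regional differences of -3.07 in transgenic pieces and -0.78 in control pieces. Its log2 signals in Region 1 were 4.39, 4.3 and 4.18 in transgenic pieces and 7.61, 7.57 and 7.69 in control pieces. *ctslb*, a cathepsin gene, was at 2.60 and turned direction, with 2.06 in transgenic pieces and -0.55 in control pieces. *pcdh12* was at -2.34, and *gbx2*, a gene of the anterior hindbrain, at -1.81, with regional differences of 0.54 in transgenic pieces and 2.35 in control pieces.

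Other genes of the hindbrain, the neural tube and its patterning were *fgf3* (-1.71), *shhb* (-1.32), *cyp26c1* (-1.22), *onecut1* (1.12), *zic2a* (-0.90), *foxb1a* (-0.89), *six3b* (0.81), *emx2* (0.71), *otx2b* (0.66), *foxb1b* (0.62) and *gli2a* (0.61). Genes of the paraxial mesoderm, muscle and presomitic mesoderm were *myf5* (1.22), *dmrt2a* (-1.03), *sox9a* (-0.86), *foxd5* (0.81), *vgll2a* (-0.79), *pdgfra* (-0.76), *foxd2* (-0.72), *tbx16* (0.70), *rbm24a* (0.68), *her12* (0.55) and *hoxc6b* (0.54). The regional difference of *myf5* was -0.73 in transgenic pieces and -1.95 in control pieces. The *dmrt2a* value counts transcripts of the transgene, if its probes cover them, together with those of the endogenous gene.

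Genes of other mesoderm, endoderm and vessels were *tbx1* (-1.48), *hnf1bb* (1.21), *cxcl12b* (-1.20), *osr1* (1.18), *rdh10a* (-1.10), *etsrp* (0.93), *hnf4a* (0.65) and *lmo2* (0.62). The remaining ones were *grin2da* (1.67), *mrps17* (1.02), *psme1* (0.84), *slc7a11* (0.81), *fzd10* (0.78) and *tll1* (-0.60). *tbx1* stayed higher in Region 1 in both genotypes, by 2.77 in transgenic pieces and by 4.25 in control pieces.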

How the results depend on the processing

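No alternative turned the direction of a called gene among the 883 genes looked at, while genes near 0 that were not called could change sign. Their side of the thresholds was kept by 842 genes without centring (14 calls lost, 27 gained), by 867 with quantile normalisation (5 lost, 11 gained) and by 871 with the 75th percentile (3 lost, 9 gained). Array weights lost 2 calls and gained 2, and leaving out 1 array lost 2 to 7. Fitting all 12 arrays, a trend with a robust spread, the ANOVA of the methods, the replicate block and leaving out repeated probe sets, which was chosen after seeing the data, changed the call of none of the 883. With the replicate number as a block, 915 probe sets were called higher and 974 lower, and 412 and 402 named genes. The labels do not say whether same-numbered pools share embryos or a batch. Leaving out 1 array gave 795 to 837 called genes, of which 775 to 789 were among the 814.

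Without centring, 1397 probe sets were called higher and 589 lower, and at an adjusted p alone 12220 and 5245, against 6297 and 15724. Among probe sets with a mean log2 signal above 5, 350 were called higher and 408 lower (2169 and 6308 at an adjusted p alone), with 205 and 235 named genes. Probe sets with 1 symbol gave 565 and 525, with 8685 lower at an adjusted p alone, and quantile normalisation gave 7499 lower. With 1 array left out, 9236 to 11406 were lower at an adjusted p alone. Fewer probe sets enter under the filters. For the scalings the cause was not tested.

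Among lists, the brightness filter left 6 of 11 formed somite genes and 1 of 7 matrix genes called higher. Iroquois and Zic genes called higher numbered 8 without centring, against 5, and epidermis genes 2 or 3 under the other scalings, against 1. Without scanner files, signal over background is unknown.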

Other observations

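Further gene families were picked after their values were seen. Their counts stand beside a background of 2.01% of named genes called higher and 1.96% called lower. All 3 Tet genes, whose products oxidise methylcytosine in DNA, were called higher in Region 1. *tet3* had 5.86, 5.93 and 6.0 in Region 1 and 3.65, 3.75 and 3.65 in Region 2 (log2 difference 2.25), and *tet1* differed by 1.11 and *tet2* by 1.02, which ranged from 0.92 to 1.08 when 1 array was left out. Dimmer probe sets of *tet1* and *tet2* gave -0.07 and -0.26. Of 15 Prdm genes, 3 were called higher, 1 was called lower (*prdm11*, -1.03, not called in at least 1 fit that left out an array) and 11 were not called (median log2 difference -0.17). *prdm13*, a gene of dorsal spinal cord progenitors, was at 6.93, 6.94 and 6.99 in Region 1, against 3.93, 3.64 and 3.76 in Region 2 (log2 difference 3.17), *prdm14* differed by 2.92 and *prdm12b* by 2.78. Of 6 Nr2f genes, nuclear receptor genes, *nr2f1a* (2.7) and *nr2f5* (2.5) were called higher, and of 4 teashirt genes, *tshz1* (1.91) and *tshz3a* (1.67), with another probe set of *tshz1* at -0.27.

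Of 12 Smad genes, which carry Tgf-beta and Bmp signals to the nucleus, 6 were called lower in Region 1 and none higher. Beside *smad9* and *smad7*, which are also on the Bmp list, these were *smad3a* (-2.25), *smad10b* (-2.05), *smad3b* (-1.95, and -0.59 in a dimmer probe set) and *smad10a* (-1.02). *smad3a* was at 4.53, 4.82 and 4.81 in Region 1 and at 6.97, 7.08 and 6.86 in Region 2. The Bmp effector genes *smad1* (-0.27) and *smad5* (-0.46) were not called.

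Zebrafish keeps many genes as pairs of duplicates. Of 2373 pairs of symbols that differ only in a final a or b, 246 had at least 1 called gene, and in 212 of these only 1 was called. Since 2.01% of all named genes were called higher and 1.96% lower, the count of 212 alone says nothing about divergence of duplicates. Both genes were called in 34 pairs, 30 of them in the same direction (20 higher in Region 1, 10 lower). The 4 pairs in opposite directions were *angptl2a* (3.01) and *angptl2b* (-1.26), *snai1b* (1.46) and *snai1a* (-1.20), *ihhb* (1.24) and *ihha* (-1.05), and *foxb1a* (1.21) and *foxb1b* (-1.01). *angptl2a* had 5.86, 5.80 and 5.63 in Region 1 and 2.69, 2.66 and 2.9 in Region 2, while *angptl2b* had 5.95, 6.11 and 5.99 in Region 1 and 7.34, 7.17 and 7.34 in Region 2. *ihha* fell below the fold threshold without replicate 1 of Region 1 (-0.94) or replicate 3 of Region 2 (-0.97), and *foxb1b* did so without replicate 3 of Region 1 or replicate 1 of Region 2 (-0.99 in both cases).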
